A study of Aquilegia coerulea with 32 samples.

Results

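The 8 libraries of stage 2 (s2) floral buds of Aquilegia coerulea were compared with the 8 libraries of stage 4 (s4), 16 of the 32 libraries of a series that follows early flower development from s1 to s4. The members were taken by their stage label and not by any measured value. All plants were vernalized wild-type individuals of the cultivar 'Kiragami', with no transgene or treatment difference between the stages, and the dissected tissue was whole axillary floral buds without 3 of their sepals, the other sepals being left in the sample. Buds of s2 had made their stamens and staminodes but no carpels yet. By s4 the carpels took up the whole apex, and the staminodes, sterile organs between the stamens and the carpels, could be told from stamens by their width. An s2 library pooled 2 buds of different individuals, whereas an s4 library held 1 bud, so stage and the number of buds cannot be told apart. The comparison asked which genes changed while the flower went from making primordia to early organ growth, always as s4 minus s2.

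A floral meristem is a group of stem cells that makes organ primordia in whorls and then stops. In Arabidopsis, LEAFY and its F-box partner UFO set floral identity, KNOX homeobox proteins hold meristem cells undifferentiated, boundary genes separate primordia, and MADS-box proteins give each whorl its organ type. Anthers then form sporogenous cells and a tapetum that feeds them, while the epidermis of young organs lays down cuticle and the walls loosen as cells grow. Whole buds do not show which organ a change belongs to, and a fall can come from fewer cells that express a gene or from less RNA per cell, and the libraries do not tell these apart.

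The s2 libraries held between 22918814 and 28035198 estimated counts (median 24274948) and the s4 libraries between 23593930 and 31647238 (median 28863022). The s4 totals were higher by an exact permutation test (two-sided p = 0.0118, 0.0208 without s4 replicate 4), so s4 was also the more deeply sequenced stage. Transcripts with a value above 0 numbered 23342 ± 131 at s2 and 23923 ± 242 at s4 (SD, n = 8 each), and their part in the differences below was not tested. The mean length of sequenced fragments was 186 ± 4.94 bases at s2 and 193 ± 10.4 bases at s4 (SD; exact permutation test, two-sided p = 0.106). S4 replicate 4 stood apart from its stage, at a distance of 1.10 from the mean of s4 on the log2 CPM scale where the other 7 s4 libraries lay between 0.420 and 0.557. Log2 fold changes and the calls of each list are therefore given with and without it: the value without s4 replicate 4 (s4r4) stands in brackets after the value with all libraries, behind the standard error (SE) where one is given. A gene whose call depended on it is named as such. Fold changes given after "at" or "rose by" are on the log2 scale, and where a gene has a pair of TPM values these are the medians of the 8 s2 and the 8 s4 libraries. The homolog of LEAFY, AqUFO1, AqSEP1, the carpel gene AqCRC and the AP3 homolog were above 0 TPM in all 16 libraries.

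**Figure D1:**
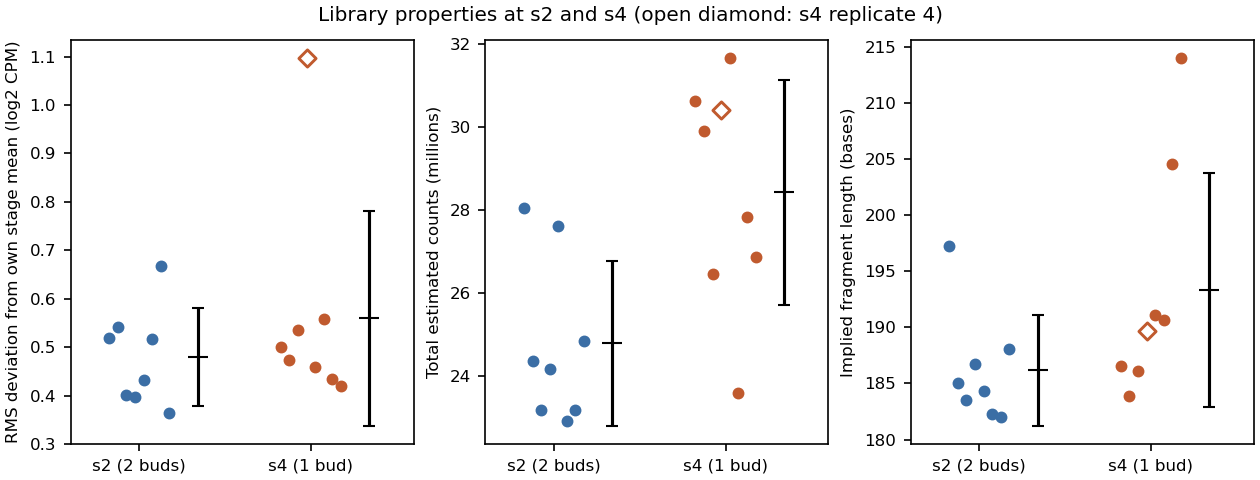
Properties of the 8 s2 and 8 s4 libraries, 1 point per library, with s4 replicate 4 as an open diamond; the horizontal position separates the stages and each panel's vertical axis carries its own unit. The s4 totals sit higher on the whole but overlap those of s2, and s4 replicate 4 is at 1.10 on the distance panel, above every other library.

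Among the 20477 genes with over 1 CPM, a count scaled to library size, in some library, 1023 were called different between s2 and s4, at an adjusted p under 0.05 and a log2 fold change of at least 1 in size (edgeR quasi-likelihood test, Benjamini-Hochberg). Of these, 799 (3.90%) were higher at s4 and 224 (1.09%) lower, so 78.1% of the calls were higher. The fold changes of the called genes had a median of 1.90 among the higher and -1.38 among the lower genes. A log2 fold change of at least 4 was found for 101 of the higher genes, and only 2 of the lower genes fell that far. The normalization centres the fold changes, and their median over all tested genes was 0.00.

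The genes that rose mostly started from a low level. The median over the 799 higher genes of their mean TPM (a level per transcript length that sums to the same total in every library) was 0.740 at s2 and 3.15 at s4, against 12.9 and 12.2 over all genes tested. Under 1 TPM at s2 were 446 of them (55.8%), and 12 had no count in any s2 library. The 224 lower genes went from a median of 9.58 TPM to 3.04 TPM. Summed over their members, the higher genes held 5688 TPM at s2 and 17103 TPM at s4, and the lower genes 9299 and 3596 TPM. Both classes were shorter than the tested genes as a whole, with median transcript lengths of 1390.0 and 1409 bases against 1633.

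The stages separated completely for a larger share of the falls than of the rises. All 8 libraries of one stage lay beyond all 8 of the other for 184 of the 799 higher genes (23.0%) and 106 of the 224 lower genes (47.3%). Over all tested genes the shares were 1.20% upward and 1.06% downward, and 1.96% and 1.42% without s4 replicate 4.

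Without s4 replicate 4, 1272 genes were called, 877 higher (4.28%) and 395 lower (1.93%), which moved the higher share of the calls to 68.9%. Both fits called 716 genes higher and 202 lower, and no gene was called in opposite directions. Leaving the library out removed 83 higher and 22 lower calls and added 161 higher and 193 lower ones. In 73 of the 83 lost higher calls s4 replicate 4 was the highest of the 16 libraries. In 157 of the 161 added higher calls and 187 of the 193 added lower calls it lay within the s2 range or past its far end. Among the higher genes called in both fits, the TPM of s4 replicate 4 was compared with the median of the other s4 libraries. At the median gene it was 48.0% of that value, below the rest of its stage. Of the 799 higher genes, s4 replicate 4 was the lowest s4 library for 299 and s4 replicate 3 for 157.

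Gene groups were described by 21 lists. Their members were taken from loci with Arabidopsis homologs in the study's own tables of differentially expressed (DE) genes, which rest on these samples. The lists are for that reason not independent evidence of a change: of the 1954 tested loci with such an annotation 47.2% were called here, 36.6% higher and 10.6% lower, and the counts of each list stand against those shares. The higher calls of the secondary wall, stomatal and flavonoid lists were close to the 36.6%. Under it were those of the auxin, abscisic acid, cytokinin, gibberellin and brassinosteroid, ubiquitin, cell division and photosynthesis lists, among others. All members of the lists are shown in the plot of fold changes by list.

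**Figure D2:**
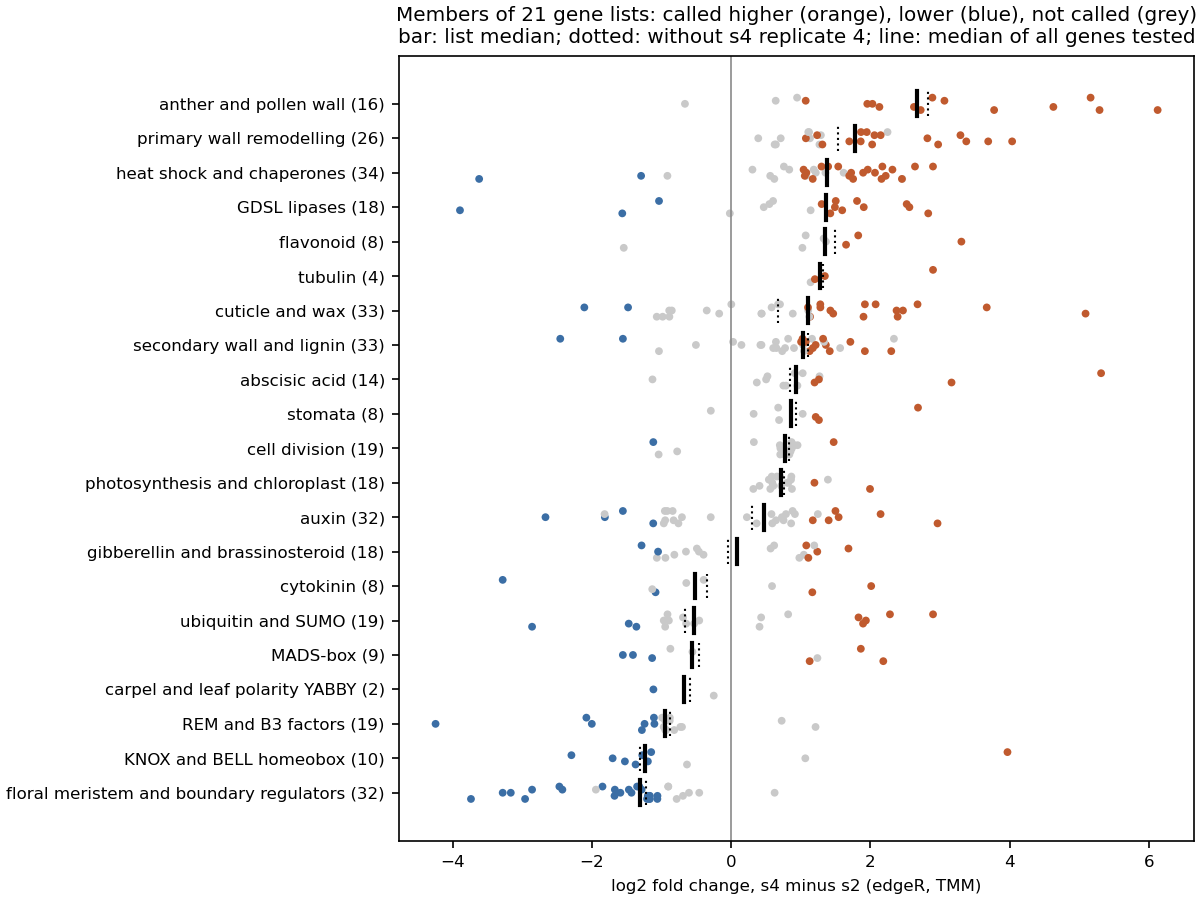
Log2 fold change (s4 minus s2) of each member of the 21 lists, with the number of members in brackets, orange for called higher, blue for called lower and grey for not called; solid bars are list medians, dotted bars the medians without s4 replicate 4, and the vertical line the median of all genes tested. The floral meristem and boundary list lies lowest with the KNOX and BELL list, and the anther and pollen wall list lies highest.

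Of the 32 regulators of the floral meristem and of organ boundaries 24 were called lower and 0 higher (22 lower and 0 higher without s4r4), and 8 were not called. Of those 24 genes, 21 had no overlap between the 8 libraries of each stage, where the share among all called falls was 47.3%. The median log2 fold change of the 32 was -1.30 (-1.22 without s4r4). The homolog of LEAFY (Aqcoe5G327800), the transcription factor that gives a meristem its floral identity, ran from 733 to 1077 TPM at s2 (median 862) and from 181 to 402 TPM at s4 (median 341). Every s4 library was below every s2 library, and the log2 fold change was -1.43 ± 0.14 (SE, -1.40 without s4r4, adjusted p = 9.2e-09).

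AqUFO1 (Aqcoe1G161900), homolog of the F-box gene that acts with LEAFY, ran from 28.8 to 54.2 TPM at s2 (median 37.2) and from 1.59 to 7.91 TPM at s4 (median 3.76). Its log2 fold change was -3.17 ± 0.23 (SE, -3.05 without s4r4, adjusted p = 4.2e-11), beside -1.43 (-1.40) for LEAFY, and its stages did not overlap. Its median at s3 was 17.7 TPM, between those of s2 and s4. The loci Aqcoe0095s0001 and Aqcoe4G199100 have the same Arabidopsis best hit and went from 30.5 to 3.64 TPM and from 3.97 to 0.0323 TPM in the median. Any reads shared by the 3 loci would be divided between them by the pseudoaligner, so their levels may not be separate measurements. Such sharing was not tested.

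AqSAP (Aqcoe1G384300), homolog of the F-box protein STERILE APETALA, which acts on organ growth, ran from 10.5 to 21.5 TPM at s2 (median 15.9) and from 0.791 to 2.96 TPM at s4 (median 2.08). The stages were apart in all libraries, and the log2 fold change was -2.86 ± 0.21 (SE, -2.85 without s4r4, adjusted p = 4.6e-11). AqAHP6 (Aqcoe7G234000) encodes the homolog of a pseudo-phosphotransfer protein that dampens cytokinin signalling, and went from 2.52 to 3.78 TPM at s2 (median 2.98) and from 0.0665 to 0.601 TPM at s4 (median 0.236). Its libraries did not overlap either, at a log2 fold change of -3.28 ± 0.27 (SE, -3.23 without s4r4, adjusted p = 2.3e-10). The zinc-finger gene homologous to SUPERMAN (Aqcoe2G368300), which in Arabidopsis separates stamens from carpels, went from 9.36 to 1.90 TPM in the median, with a log2 fold change of -2.43 ± 0.31 (SE, -2.27 without s4r4, adjusted p = 8.6e-07). The homolog of the signalling peptide gene CLE27 (Aqcoe3G039100) went from 2.66 to 0.486 TPM with a log2 fold change of -2.47 (-2.31 without s4r4).

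The 2 homologs of CUC3, a NAC factor of organ boundaries, went from 33.3 to 10.1 TPM (Aqcoe5G113900) and from 15 to 5.0 TPM (AqCUC3, Aqcoe6G165500) in the median, with log2 fold changes of -1.68 (-1.65) and -1.47 (-1.43). AqHAN (Aqcoe5G190300), a GATA factor at the edge of meristem and primordia, had a log2 fold change of -1.29 ± 0.28 (SE, -1.14 without s4r4, adjusted p = 0.0019). AqLAS (Aqcoe1G411100), a GRAS factor of axillary meristems, went from 12.1 to 4.68 TPM with a log2 fold change of -1.21 ± 0.21 (SE, -1.13 without s4r4, adjusted p = 1.2e-04). AqPAN (Aqcoe3G399500), a bZIP gene that in Arabidopsis sets organ number, went from 22.5 to 6.32 TPM with a log2 fold change of -1.67 ± 0.16 (SE, -1.60 without s4r4, adjusted p = 4.3e-09). The JAGGED homolog (Aqcoe3G037600), a zinc-finger gene of lateral organ growth, went from 57.3 to 16.0 TPM with a log2 fold change of -1.59 ± 0.12 (SE, -1.54 without s4r4, adjusted p = 7.7e-11). Of the 2 homologs of AINTEGUMENTA, an AP2-type growth factor gene, Aqcoe5G094800 had a log2 fold change of -1.35 (-1.27) and Aqcoe6G259300 of -1.06 (-0.94), a call that was lost without s4 replicate 4.

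AqAS1 (Aqcoe1G459000), a MYB factor that keeps KNOX genes off in organs, ran from 185 to 273 TPM at s2 (median 243) and from 32.4 to 131 TPM at s4 (median 114). Its log2 fold change was -1.17 ± 0.16 (SE, -1.04 without s4r4, adjusted p = 3.0e-06), and the lowest of all its s4 values belonged to replicate 4. The KAN2 homolog (Aqcoe3G169700), of abaxial identity, had a log2 fold change of -1.20 (-1.19), whereas the value of AqPHB (Aqcoe1G178700), of adaxial identity, was -0.91 (-0.90) and did not reach the fold threshold. AqHB3 (Aqcoe1G245800), a WOX9 homolog, and the EPF-like peptide gene AqEPFL4 (Aqcoe2G352600) were called lower at -1.06 (-0.94) and -1.18 (-1.08). The call of AqHB3 was lost without s4 replicate 4, which held 6.67 TPM of it against at least 14.5 TPM in the other s4 libraries. Not called were AqBOP (Aqcoe2G033300) at -0.78 (-0.70), the AIL6 homolog (Aqcoe6G092100) at -0.69 (-0.73) and the homolog of the stem cell gene WUSCHEL (Aqcoe2G057900) at -0.61 (-0.41). WUSCHEL had medians of 9.24 TPM at s2 and 7.13 TPM at s4, adjusted p = 0.28. S4 replicate 4 held 0.118 TPM of WUSCHEL, against 3.34 to 11.6 TPM in the other s4 libraries. Of the 2 TFL1 homologs, Aqcoe1G447800 had a log2 fold change of -1.85 (-1.66) and was called, and its neighbour Aqcoe1G447700 one of -0.46 (-0.28) and was not. The difference between them was not tested.

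**Figure D3:**
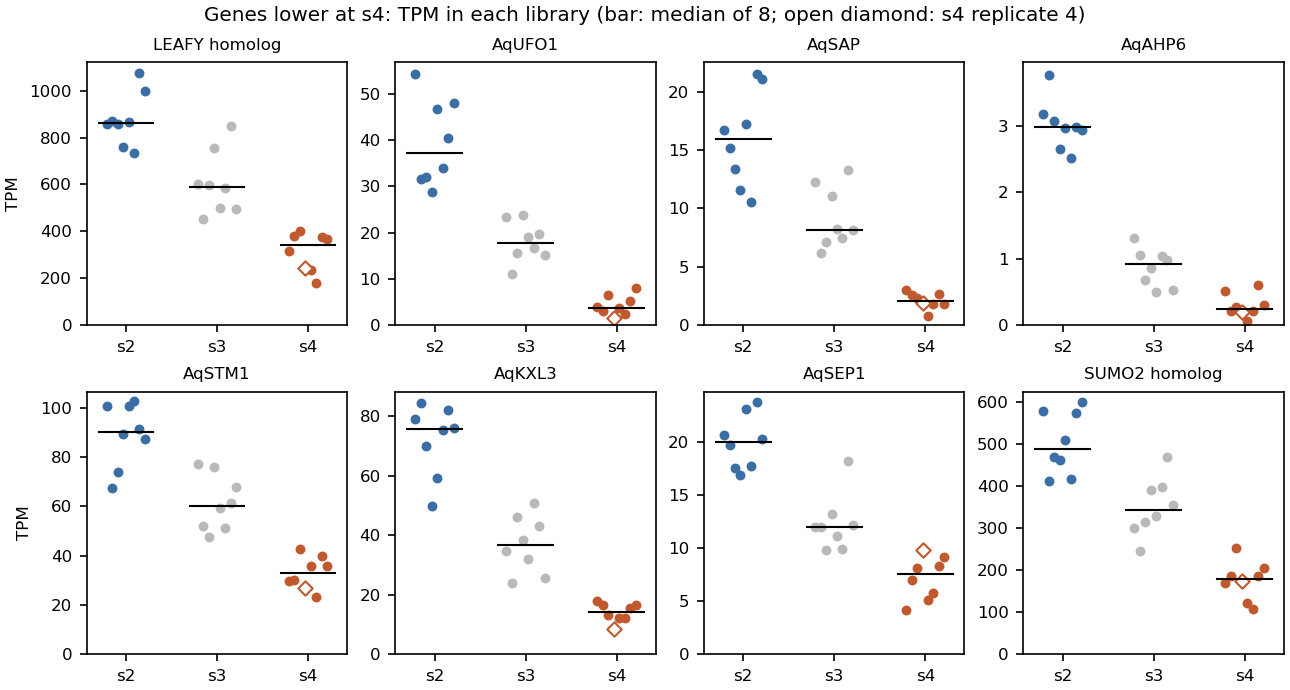
TPM of 8 genes lower at s4, 1 point per library at s2, s3 and s4, with bars at the medians of 8 libraries and s4 replicate 4 as an open diamond. LEAFY goes from a median of 862 to 341 TPM and AqUFO1 from 37.2 to 3.76 TPM, with the s3 medians between in both.

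KNOX and BELL homeobox genes, many of which keep meristems active, were lower in 7 of 10 members and higher in 1 (7 lower and 2 higher without s4r4), with a median log2 fold change of -1.24 (-1.31 without s4r4). AqSTM1 (Aqcoe4G224800), homolog of the meristem gene SHOOT MERISTEMLESS, ran from 67.6 to 103 TPM at s2 (median 90.3) and from 23.3 to 42.6 TPM at s4 (median 33.0). No s4 library reached the s2 range, and the log2 fold change was -1.37 ± 0.12 (SE, -1.35 without s4r4, adjusted p = 9.7e-10). Its paralog AqSTM2 (Aqcoe1G341500) was expressed at a lower level and went from 19.9 to 6.35 TPM, with a log2 fold change of -1.70 ± 0.15 (SE, -1.63 without s4r4, adjusted p = 1.3e-09). AqKXL2 (Aqcoe3G280300), whose best hit is KNAT6, had a log2 fold change of -1.28 ± 0.11 (SE, -1.27 without s4r4, adjusted p = 2.3e-10). AqKXL3 (Aqcoe7G052800) has KNAT7 as its best hit, a KNOX gene tied to the secondary wall in Arabidopsis, although the study describes AqKXL3 with the class-I KNOX genes. The gene ran from 49.9 to 84.5 TPM at s2 (median 75.7) and from 8.57 to 17.9 TPM at s4 (median 14.3). It had the deepest fall of the list at -2.30 ± 0.16 (SE, -2.22 without s4r4, adjusted p = 3.5e-11). Its course was not a steady fall, since the s1 median was 47.9 TPM, below that of s2. The BELL homologs split, with PENNYWISE (Aqcoe2G233200) called lower at -1.15 (-1.52) and BEL1 (Aqcoe5G437300), known for ovule integuments, called higher at 3.97 (3.96) from a median of 0.0380 to 0.674 TPM.

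Of the 19 REM and B3 factor genes, a plant family of DNA-binding proteins, 7 were called lower and 0 higher (6 lower and 0 higher without s4r4), with a median log2 fold change of -0.95 (-0.88 without s4r4). AqVRN1 (Aqcoe2G107800), whose Arabidopsis best hit acts in vernalization, went from 40.2 to 16.1 TPM with a log2 fold change of -1.25 ± 0.10 (SE, -1.21 without s4r4, adjusted p = 1.4e-10). Another homolog, Aqcoe7G133200, went from 53.4 to 12.9 TPM with a log2 fold change of -2.08 ± 0.21 (SE, -1.97 without s4r4, adjusted p = 1.8e-08). Many loci of this list share a best hit, and reads of near-identical copies cannot be assigned with certainty.

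The 9 MADS-box genes moved in both directions, 3 lower and 3 higher (4 lower and 4 higher without s4r4). AqSEP1 (Aqcoe3G065400), of the SEPALLATA class that works with all organ identity proteins, ran from 16.9 to 23.8 TPM at s2 (median 20.02) and from 4.19 to 9.78 TPM at s4 (median 7.55), at a log2 fold change of -1.41 ± 0.16 (SE, -1.51 without s4r4, adjusted p = 8.2e-08). The homologs of the flowering gene SOC1 (Aqcoe5G423800) and of AGL6 (Aqcoe7G053700) were called lower at -1.56 (-1.53) and -1.14 (-1.15). Called higher were the homologs of SHP2 (Aqcoe1G209900), a carpel and ovule gene in Arabidopsis, at 1.13 (1.27), of AGL12 (Aqcoe6G007500) at 1.86 (2.03) and of AGL62 (Aqcoe5G280600) at 2.19 (2.27). The AP3 homolog (Aqcoe5G180800), of the class that gives petal and stamen identity, ran from 52.3 to 81.1 TPM at s2 (median 68.8) and from 21.3 to 65.3 TPM at s4 (median 48.5) with a log2 fold change of -0.56 ± 0.15 (SE, -0.46 without s4r4, adjusted p = 0.012), under the fold threshold. Of the YABBY genes, the YAB3 homolog (Aqcoe7G078300), of abaxial identity, went from 546 to 253 TPM with a log2 fold change of -1.12 ± 0.08 (SE, -1.06 without s4r4, adjusted p = 6.3e-11). AqCRC (Aqcoe3G065300), the carpel YABBY gene, had medians of 38.7 TPM at s2 and 34.6 TPM at s4 and was not called at -0.25 ± 0.37 (SE, -0.13 without s4r4, adjusted p = 0.69). S4 replicate 4 had 11.6 TPM of AqCRC, below the other s4 libraries.

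Ubiquitin and SUMO genes gave 5 higher and 3 lower calls among 19, with a median log2 fold change of -0.53 (-0.67 without s4r4). Without s4 replicate 4 the balance turned, with 4 higher and 5 lower calls. The SUMO2 homolog (Aqcoe2G063200), a small modifier protein, ran from 412 to 601 TPM at s2 (median 489.7) and from 107 to 254 TPM at s4 (median 179). The stages did not overlap, with a log2 fold change of -1.47 ± 0.14 (SE, -1.48 without s4r4, adjusted p = 3.0e-09). Its paralog Aqcoe1G441800 had a log2 fold change of -0.97 (-0.85), just short of the threshold, and medians of 109.8 and 56.4 TPM. Called higher were homologs of UBQ6 (Aqcoe3G283100) at 2.28 (2.46), of UBQ10 (Aqcoe3G211600) at 1.94 (2.11) and of the SCF subunit ASK3 (Aqcoe3G296600) at 1.89 (1.94). Of the pair of ARGONAUTE loci that carry small RNAs, AqAGO5a (Aqcoe5G237200) went from 83.3 to 32.9 TPM with a log2 fold change of -1.17 ± 0.14 (SE, -1.23 without s4r4, adjusted p = 4.9e-07). AqAGO5b (Aqcoe2G159700) did not pass the test, at a log2 fold change of 0.03 that had the other sign without s4 replicate 4 (-0.10).

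The genes of anthers and pollen walls had the highest median of all 21 lists. Of the 16 members 13 were called higher and 0 lower (0 lower and 14 higher without s4r4), with a median log2 fold change of 2.67 (2.83 without s4r4). One homolog of TGA9 (Aqcoe1G446200), a bZIP factor needed for anther lobes in Arabidopsis, ran from 0.464 to 2.52 TPM at s2 (median 1.54) and from 13.6 to 76.8 TPM at s4 (median 56.9). The lowest s4 library was above the highest s2 library, and the log2 fold change was 5.17 ± 0.49 (SE, 5.29 without s4r4, adjusted p = 4.7e-09). The other TGA9 homolog (Aqcoe2G141600) went from 5.57 to 70.8 TPM with a log2 fold change of 3.78 ± 0.29 (SE, 3.85 without s4r4, adjusted p = 6.3e-11). The homolog of TGA10 (Aqcoe1G018500), which acts with TGA9, went from 0.175 to 5.66 TPM with a log2 fold change of 5.29 ± 0.71 (SE, 5.48 without s4r4, adjusted p = 2.4e-06).

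The homolog of AMS (Aqcoe3G122900), a bHLH factor of tapetum function, ran from 6.20 to 11.6 TPM at s2 (median 8.28) and from 12.7 to 88.3 TPM at s4 (median 48.3), with a log2 fold change of 2.63 ± 0.25 (SE, 2.73 without s4r4, adjusted p = 4.3e-09). Of the 2 homologs of the receptor kinase EXS, which tells cells to become tapetum, Aqcoe2G426800 went from 4.23 to 32.4 TPM with a log2 fold change of 2.89 ± 0.22 (SE, 2.97 without s4r4, adjusted p = 6.3e-11). The other, Aqcoe1G136700, had medians of 33.7 and 22.2 TPM with a log2 fold change of -0.66 (-0.54) and was not called, although its adjusted p was 0.0029 (edgeR), the 1 member lower by adjusted p. The homolog of TPD1 (Aqcoe5G346200), the ligand of EXS in Arabidopsis, went from 1.91 to 7.70 TPM with a log2 fold change of 1.96 ± 0.35 (SE, 2.05 without s4r4, adjusted p = 1.7e-04). The SWI1 homolog (Aqcoe7G088400), a gene for sister chromatid cohesion in meiosis, ran from 0.0432 to 0.905 TPM at s2 (median 0.295) and from 1.31 to 13.6 TPM at s4 (median 8.22). Its log2 fold change was 4.63 ± 0.61 (SE, 4.80 without s4r4, adjusted p = 2.0e-06). ACOS5 (Aqcoe7G241700), a CoA ligase homolog for the outer pollen wall, had a log2 fold change of 3.06 (3.17), and the neighbouring MS2 homologs Aqcoe2G052800 and Aqcoe2G052900 had 2.13 (2.26) and 1.07 (1.0). Among the 13 called genes of this list, s4 replicate 3 was the lowest s4 library for 6 and s4 replicate 4 for 6, so these buds gave the low end of s4 for nearly the whole list.

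**Figure D4:**
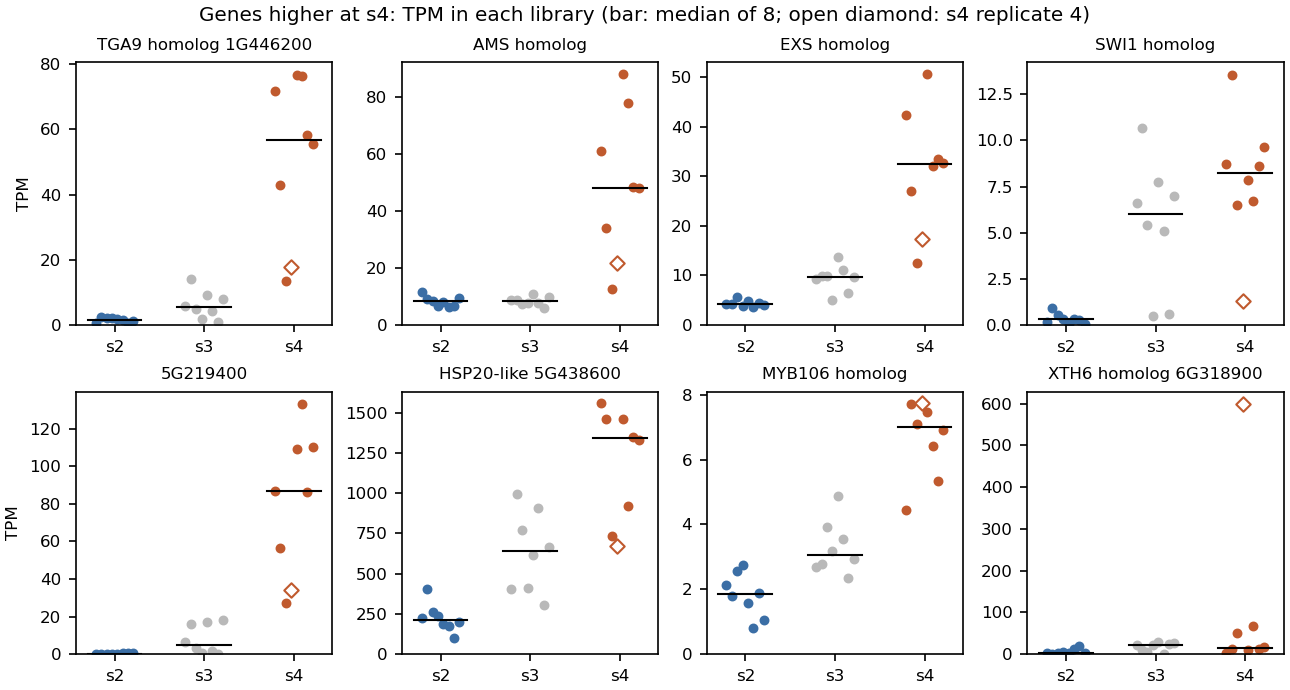
TPM of 8 genes higher at s4, 1 point per library at s2, s3 and s4, with bars at the medians of 8 libraries and s4 replicate 4 as an open diamond. The TGA9 homolog goes from a median of 1.54 to 56.9 TPM, and in the panel of the XTH6 homolog s4 replicate 4 stands alone at 599 TPM.

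Genes that loosen the primary wall were called higher in 16 of 26 and lower in 0 (0 lower and 17 higher without s4r4), with a median log2 fold change of 1.78 (1.54 without s4r4). The 8 libraries of each stage did not overlap for 2 of those 16 rises. That held for 7 of the 13 called rises of the anther list and 8 of the 20 of the heat shock list. Among all called rises the share was 23.0%. The top gene was an XTH6 homolog (Aqcoe6G318900), of a family that cuts and rejoins xyloglucan. It ran from 0.734 to 19.3 TPM at s2 (median 3.49) and from 2.81 to 599 TPM at s4 (median 14.5), and the highest value came from s4 replicate 4. Its log2 fold change of 4.04 with that library was 1.96 without it. The XTH26 homolog (Aqcoe7G163800) went from 0.192 to 2.50 TPM with a log2 fold change of 3.69 ± 0.63 (SE, 3.85 without s4r4, adjusted p = 9.6e-05). The alpha-expansin EXPA8 homologs Aqcoe2G075300 and Aqcoe1G402700 had log2 fold changes of 2.03 (2.15) and 2.06 (1.48), and the call of Aqcoe1G402700 was lost without s4 replicate 4 (adjusted p = 0.052, edgeR).

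Of 33 genes of cuticle and wax, 15 were called higher and 2 lower, with a median log2 fold change of 1.10 (0.67 without s4r4). Without s4 replicate 4 there were 14 higher and 5 lower calls. Homologs of the cuticle regulators SHN1 (Aqcoe7G266100) and MYB106 (Aqcoe3G346800) went from 0.188 to 1.52 TPM and from 1.85 to 7.01 TPM. The fold changes on the log2 scale were 2.38 ± 0.59 (SE, 2.56 without s4r4, adjusted p = 0.0057) for SHN1 and 1.92 ± 0.22 (SE, 1.87 without s4r4, adjusted p = 1.4e-07) for MYB106. Of the fatty acyl-CoA reductase homologs of CER4, which make wax alcohols, the neighbours Aqcoe2G135500 and Aqcoe2G135400 rose by 5.09 (5.21) and 2.08 (1.98). The falls in this list with all libraries were the CYP96A10 homolog Aqcoe4G016300 at -2.11 (-2.17) and Aqcoe6G135900 at -1.48 (-1.47). The CER2 homolog (Aqcoe2G406600), an acyltransferase-like gene of wax synthesis, had medians of 168 and 53.5 TPM with a log2 fold change of -0.99 (-1.35). It was called lower without s4 replicate 4, whose 202 TPM was its highest s4 value. GDSL lipases, a family with members that build cutin, gave 10 higher and 3 lower calls among 18 (2 lower and 11 higher without s4r4), with a median log2 fold change of 1.36 (1.36 without s4r4). Their highest rise was Aqcoe6G007700 at 2.83 ± 0.41 (SE, 2.92 without s4r4, adjusted p = 8.7e-06).

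Of 33 secondary wall and lignin genes 12 were called higher and 2 lower (2 lower and 15 higher without s4r4), with a median log2 fold change of 1.03 (1.10 without s4r4). The stages did not overlap for 1 of those 12 rises, where the share among all called rises was 23.0%. The subunits of the secondary wall cellulose synthase, homologs of CESA7 (Aqcoe7G221000) and CESA8 (Aqcoe4G032300), rose by 1.42 (1.45) and 1.03 (1.15). The xylan synthesis homologs IRX9 (Aqcoe1G492000) and IRX8 (Aqcoe1G365400) rose by 2.30 (2.31) and 1.71 (1.79). Both were at a low level and their stages overlapped. IRX9 ran from 0 to 0.488 TPM at s2 and from 0.467 to 1.36 TPM at s4. IRX8 ran from 0 to 0.616 TPM at s2 and from 0.152 to 2.26 TPM at s4. AqHCT (Aqcoe7G354200), whose homolog makes lignin precursors, went the other way: it ran from 10.8 to 15.2 TPM at s2 (median 12.7) and from 1.14 to 3.77 TPM at s4 (median 2.08), with a log2 fold change of -2.46 ± 0.19 (SE, -2.36 without s4r4, adjusted p = 6.3e-11). Of 4 tubulin genes 3 were higher in both fits, among them a TUB6 homolog (Aqcoe5G427300) at 2.90 (2.92).

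Heat shock and chaperone genes were higher in 20 of 34 and lower in 2 (2 lower and 21 higher without s4r4), with a median log2 fold change of 1.37 (1.38 without s4r4). A small heat shock protein gene of the HSP20 class (Aqcoe5G438600) ran from 99.7 to 403 TPM at s2 (median 212) and from 670.1 to 1559 TPM at s4 (median 1341). The stages did not overlap, and the log2 fold change was 2.45 ± 0.27 (SE, 2.53 without s4r4, adjusted p = 6.5e-08). The mitochondrial HSP23.6 homolog (Aqcoe5G417100) went from 102 to 309 TPM with a log2 fold change of 1.90 ± 0.17 (SE, 1.78 without s4r4, adjusted p = 2.6e-09). The coactivator homolog MBF1C (Aqcoe2G111100), a heat response gene, went from 32.2 to 145 TPM with a log2 fold change of 2.22 ± 0.25 (SE, 2.23 without s4r4, adjusted p = 8.5e-08). The HSP90.1 homolog (Aqcoe1G130700) had a log2 fold change of 2.64 (2.77). One HSP20-like gene with the same best hit as Aqcoe5G438600, Aqcoe5G367500, was called lower, from 2.96 to 0.209 TPM with a log2 fold change of -3.62 ± 0.59 (SE, -3.43 without s4r4, adjusted p = 5.2e-05). For 13 of the 20 called rises s4 replicate 4 was the lowest s4 library.

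Hormone genes moved in both directions. Of 32 auxin genes 6 were higher and 4 lower, with a median of 0.47 (0.30 without s4r4). Without s4 replicate 4, 6 were higher and 7 lower, so the balance turned here too. The flavin monooxygenase homolog YUC6 (Aqcoe7G399500), of auxin synthesis, and the transporter homolog WAT1 (Aqcoe5G182000) rose by 1.54 (1.69) and 2.15 (2.22), while the conjugating enzyme homologs GH3.1 (Aqcoe5G214900) and GH3.9 (Aqcoe2G298100) had log2 fold changes of -2.67 (-3.75) and -1.56 (-1.51). S4 replicate 4 held 3.41 TPM of GH3.1 and the other s4 libraries at most 0.637 TPM. Of 14 abscisic acid genes 4 were higher and 0 lower (0 lower and 5 higher without s4r4), the 4 being the homologs of the kinase OST1 (Aqcoe3G244400), CYP707A4 (Aqcoe6G141100), CCD4 (Aqcoe3G268100) and ABA2 (Aqcoe2G118500). Cytokinin gave 2 higher and 2 lower among 8 (1 lower and 2 higher without s4r4), with the response regulator homolog ARR8 (Aqcoe1G041400) at 2.01 (2.10) and the degrading enzyme homolog CKX1 (Aqcoe1G038400) at -1.09 (-1.0). CKX1 was the lower call lost without s4 replicate 4, just short of the threshold. The other lower call of the list was AqAHP6, whose deeper fall is given above and was called in both fits. Of 18 gibberellin and brassinosteroid genes 4 were higher and 2 lower (3 lower and 4 higher without s4r4), with a median of 0.08 that was -0.04 without s4 replicate 4. The brassinosteroid synthesis homologs DWF4 (Aqcoe1G376900) and BR6OX2 (Aqcoe1G468600) rose by 1.08 (1.23) and 1.69 (1.75). S4 replicate 4 held 13.5 TPM of DWF4, below the 19.9 to 48.7 TPM of s2, and the other s4 libraries held 54.8 to 79.3 TPM. BR6OX2 was low, at 0.0394 to 0.736 TPM at s2 and 0.360 to 2.05 TPM at s4. The gibberellin synthesis homolog GA3OX1 (Aqcoe2G173400) had -1.05 (-0.99), a call lost without s4 replicate 4.

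Stomatal genes were higher in 3 of 8 and lower in 0, in both fits. The FAMA homolog (Aqcoe2G399200), a bHLH factor of the last step of guard cell formation, went from 0.164 to 1.82 TPM with a log2 fold change of 2.68 ± 0.53 (SE, 2.72 without s4r4, adjusted p = 6.4e-04). AqMUTE (Aqcoe2G332800), a factor of an earlier step, had medians of 5.27 and 7.28 TPM and was not called at 0.32 ± 0.30 (SE, 0.37 without s4r4, adjusted p = 0.5). AqEPF1 (Aqcoe1G319600), a peptide that limits stomata, was not called either at 0.69 (0.75), and the STOMAGEN homolog (Aqcoe2G409200), a peptide that promotes them, was higher at 1.21 (1.34). Flavonoid genes were higher in 3 of 8 (4 without s4r4), with the F3H homolog (Aqcoe2G181600) going from 2.26 to 10.1 TPM and its regulator homolog TT8 (Aqcoe2G311100) from 0.975 to 3.28 TPM.

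Most cell division and photosynthesis genes stayed under the fold threshold. Of 19 cell division genes 1 was called higher and 1 lower (0 lower and 2 higher without s4r4), yet 13 were higher at an adjusted p under 0.05 whatever the fold change, with a list median of 0.77 (0.83 without s4r4). A B-type cyclin homolog (Aqcoe1G049900) had medians of 109 and 230.2 TPM and the Aurora kinase homolog AUR1 (Aqcoe7G144400) of 63.4 and 128 TPM. The stages of the cyclin homolog overlapped, at 75.1 to 197 TPM at s2 and 99.5 to 309 TPM at s4. Its s4 replicates 3, 4 and 6 lay inside the s2 range. The replication origin gene homolog ORC1B (Aqcoe3G201200) was the 1 lower call at -1.12 (-0.94). It was lost without s4 replicate 4, which held 0.285 TPM against 3.78 to 11.2 TPM in the other s4 libraries. Of 18 photosynthesis genes 2 were called higher and 0 lower (0 lower and 3 higher without s4r4), with 9 higher at an adjusted p under 0.05 and a list median of 0.71 (0.75 without s4r4). With no fold threshold, 14.6% of all genes tested had an adjusted p under 0.05, 1778 higher and 1221 lower, and 24.3% without s4 replicate 4. The list members come from the annotated loci, and of those 925 of 1954 were higher by adjusted p. The median log2 fold change of the annotated loci was 0.87 (0.87 without s4r4). Photosynthesis lay near that share and cell division above it, and both list medians were under that median.

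The 10 deepest falls among genes called in both fits and without overlap, besides AqAHP6, AqUFO1 and the GDSL and HSP20-like loci Aqcoe2G161400 and Aqcoe5G367500, included a homolog of VIM1 (Aqcoe3G422300), which keeps CG methylation in Arabidopsis. It ran from 20.8 to 35.2 TPM at s2 (median 27.3) and from 0.656 to 4.56 TPM at s4 (median 3.28), with a log2 fold change of -3.15 ± 0.24 (SE, -3.0 without s4r4, adjusted p = 6.3e-11). The protein kinase gene Aqcoe7G055500 ran from 9.62 to 19.7 TPM at s2 (median 13.9) and from 0.459 to 2.42 TPM at s4 (median 1.99), with a log2 fold change of -2.98 ± 0.22 (SE, -2.84 without s4r4, adjusted p = 6.2e-11). The MCT1 homolog (Aqcoe5G279900), with an RNA-binding domain of the MEI2 type, went from 16.7 to 1.68 TPM, and the tetraspanin TET2 homolog (Aqcoe7G131100), a membrane protein, from 5.92 to 0.363 TPM. The remaining members were an acyltransferase-like gene (Aqcoe5G104000) at -3.0 (-2.97) and Aqcoe5G133100, a locus without annotation here, at -3.07 (-3.05). The copper/zinc superoxide dismutase homolog CSD1 (Aqcoe2G315500) fell almost as far, from 24.3 to 3.89 TPM with a log2 fold change of -2.48 ± 0.22 (SE, -2.44 without s4r4, adjusted p = 1.1e-09).

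The 10 largest rises by the same rule started at or near 0. Aqcoe5G219400, a locus without annotation here, ran from 0 to 0.654 TPM at s2 (median 0.184) and from 27.2 to 133 TPM at s4 (median 86.6). It was the highest of them at s4 in TPM, with a log2 fold change of 8.32 ± 0.75 (SE, 8.43 without s4r4, adjusted p = 1.5e-09). Its neighbour on chromosome 5, the hexokinase-like gene Aqcoe5G219300, had 0 counts in the s2 libraries and 96 counts over the s4 libraries, at least 27.9-fold higher against a floor of 3 counts over the stage. By the same bound the extensin family gene Aqcoe6G018800 was at least 56.1-fold higher and the acyltransferase-like gene Aqcoe7G435100 at least 17.7-fold. A bHLH gene (Aqcoe3G183200) went from a median of 0 TPM at s2 to 4.57 TPM at s4 with a log2 fold change of 7.70 ± 0.82 (SE, 7.84 without s4r4, adjusted p = 4.3e-08). The plasmodesma protein homolog PDLP2 (Aqcoe5G017100), of the channels between cells, went from 0.0769 to 13.3 TPM with a log2 fold change of 7.13 ± 0.87 (SE, 7.31 without s4r4, adjusted p = 4.8e-07). Aqcoe7G186800, again without annotation, went from 0.488 to 39.4 TPM with a log2 fold change of 6.21 ± 0.59 (SE, 6.36 without s4r4, adjusted p = 4.0e-09). The nucleoside transporter gene Aqcoe7G264500 rested on 1 count at s2 and 162 at s4, with a depth-scaled ratio of 141 and a 95% counting interval from 25.0 to 5616. This interval and the bounds above cover counting error only, not the spread between libraries. The last of the 10 were Aqcoe5G398100 at a median of 4.56 TPM at s4 and Aqcoe4G079300 at 1.05 TPM, both with an s2 median of 0.

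The most abundant genes that changed were of other kinds. Among the rises, the small subunit of Rubisco (Aqcoe3G038900), the carbon-fixing enzyme, ran from 557 to 1238 TPM at s2 (median 832) and from 824 to 2724 TPM at s4 (median 1738). Its stages overlapped, at a log2 fold change of 1.10 ± 0.23 (SE, 1.11 without s4r4, adjusted p = 0.001). A ubiquitin fused to ribosomal protein L40 (Aqcoe5G469000) ran from 382 to 496 TPM at s2 (median 449) and from 975 to 1690.2 TPM at s4 (median 1234) without overlap, with a log2 fold change of 1.5 ± 0.12 (SE, 1.53 without s4r4, adjusted p = 2.1e-10). A lipid-transfer-like gene (Aqcoe6G315000) went from 132 to 510.0 TPM and the glutathione transferase homolog GSTF13 (Aqcoe2G303700) from 161 to 819 TPM, the set being closed by the HSP20 gene Aqcoe5G438600. Among the falls, LEAFY, SUMO2 and YAB3 were joined by an oxygenase gene (Aqcoe2G306300) that went from 432 to 120.3 TPM and by the homolog of the ethylene response factor ERF7 (Aqcoe5G038100). ERF7 ran from 509 to 1329.7 TPM at s2 (median 734) and from 294 to 499.7 TPM at s4 (median 347), and its log2 fold change of -1.0 ± 0.19 (SE, -1.0 without s4r4, adjusted p = 3.1e-04) lay on the threshold.

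S4 replicate 4 alone carried some rises. The 5 genes called only with it whose fold changed most had 1 high library each. Aqcoe4G056300 stood at 1229 TPM in s4 replicate 4, and its median at s4 was 0.293 TPM. Its neighbour by number, Aqcoe4G056200, was at 270.4 TPM there, with log2 fold changes of 6.52 with the library and -1.47 without it. In the same library Aqcoe3G136400 was at 75.8 TPM, Aqcoe4G058900 at 25.0 TPM and Aqcoe5G451000 at 17.4 TPM, with s4 medians of 0.0153, 0 and 0 TPM. None of the 5 has an annotation here. The reverse case, a call only without the library, held for 5 genes with the lowest adjusted p, among them AqMP (Aqcoe5G226900), an auxin response factor of organ initiation, which ran from 161 to 269.6 TPM at s2 (median 223) and from 88.1 to 130.4 TPM at s4 (median 104). Its log2 fold change went from -0.95 to -1.01, across the threshold. The auxin receptor homolog TIR1 (Aqcoe2G310400) went from -0.95 to -1.08 and the F-box gene Aqcoe7G317700 from -0.92 to -1.05. Aqcoe2G391400 and Aqcoe3G007700 crossed it in the same way, to -1.05 and 1.05.

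The s3 libraries also held 2 buds each. The mean of s3 was between those of s2 and s4 for 730 of the 799 higher genes and 216 of the 224 lower genes. These genes were called for a wide gap between s2 and s4, into which most s3 means would fall by that choice. The same share over all genes was not computed, so no conclusion is drawn from these counts. At the median gene s3 had covered 45.7% of the rise and 39.0% of the fall on the log2 scale. The change from s1 to s3, which shares no library with that from s2 to s4, had the same sign for 734 higher genes (91.9%) and 201 lower genes (89.7%). Over all genes tested 51.2% were higher and 48.8% lower at s3 than at s1. From s1 to s3, 645 genes were called higher (3.15%) and 124 lower (0.606%). The 363 genes called higher in both changes were 45.4% of those from s2 to s4 and 56.3% of those from s1 to s3. The 68 called lower in both were 30.4% and 54.8%, and 6 genes were called in opposite directions.

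Called genes were found on all 7 chromosomes that the locus names give. Chromosome 4 had the highest shares, with 79 of 1542 tested genes higher (5.12%) and 27 lower (1.75%), and on the other 6 chromosomes 3.44% to 4.27% were higher and 0.687% to 1.39% lower. These shares are from the fit with all libraries and were not counted without s4 replicate 4. Aqcoe4G056300, Aqcoe4G056200 and Aqcoe4G058900, called only with that library, are among the rises of chromosome 4. Next to each other by locus number, with the same direction, stood 93 called genes in 44 runs, 83 of them higher and 10 lower. The 4 runs of at least 3 genes all rose. The EF-hand calcium-binding genes Aqcoe5G153700 to Aqcoe5G153900 had log2 fold changes from 3.46 to 5.09. The AGL12 homolog stood in a run with GDSL lipase genes from Aqcoe6G007500 to Aqcoe6G007700, at 1.30 to 2.83. The others ran from Aqcoe6G001500 to Aqcoe6G001700, at 1.55 to 1.86, and from Aqcoe1G460800 to Aqcoe1G461100, at 2.27 to 5.18. Neighbours of like sequence may share reads, which was not tested.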

How the data were processed

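Each library was made from floral buds with an oligo-dT based full-length cDNA kit, and neither this kit nor the tagmentation step marks the strand, so a gene and its antisense partner cannot be told apart. Per the file headers and the study's methods, the authors quantified reads with kallisto on the transcripts of the 'Goldsmith' 3.1 reference and deposited 1 table per library with estimated counts and TPM. The deposited estimated counts are not all whole, because kallisto divides reads among similar transcripts, and they were rounded to whole numbers before testing. The deposited TPM values were used for levels only, and no filter of the authors on low values was found in the tables.

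A transcript was tested when any of the 32 libraries exceeded 1 CPM, which kept 20477 of 30023. Counts of all 32 libraries were fitted in 1 model with a mean per stage, TMM normalization and the quasi-likelihood test of edgeR 4.0.16 in R 4.3.3, so that the 4 stages shared 1 estimate of the spread, and s4 minus s2 was tested. p-values were adjusted over all tested genes by the Benjamini-Hochberg method, and a gene was called at an adjusted p under 0.05 with a log2 fold change of at least 1 in size. SE is the fold change divided by the square root of the F statistic. The fit was tested on simulated data first. Library properties were compared by exact permutation tests. Alternatives were DESeq2 1.42.0 and limma-voom 3.58.1, other size factors and counts, other filters, only the 16 libraries compared, each library left out in turn and the replicate number as a block. Settings that combine the last choices without s4 replicate 4 were added after the data were seen.

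Named genes were up to 4 rises and 4 falls of each list, all members of lists of up to 10 genes, the 10 largest rises and falls called in both fits without overlap, the 5 most abundant called genes of each direction, the 5 genes whose call most depended on s4 replicate 4 in each sense, and genes the study's text names by identifier, and examples from a list were taken from among these or added after their values were seen. The members and lists were chosen with earlier results of these data known. The libraries are separate samples of a stage. The study dissected more buds than it had plants, so some plants gave several buds, and libraries need not be independent individuals. Since nothing says which libraries share a plant, p-values measure only the spread between these libraries. No batch was given. Names of genes come from the Arabidopsis best hits in the study's tables, which were used for 1955 loci, and sequences and positions of the loci are not used here. The study's own lists of comparisons were not used for values.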

Additional observations from a re-analysis of the deposited data

Results flagged for a closer look

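Single libraries far from the other 7 of their stage were looked for with Dixon's ratio among 73 of the genes described by library, 146 groups of 8 libraries in all, and among the library properties. Of these genes 10 had been chosen because their call depended on s4 replicate 4, so a library that stood apart in them is not independent of that choice. Among the other 63 genes, such a library was found in 12 of 126 groups, 3 at s2 and 9 at s4, and s4 replicate 4 was the library in 7 of those 9. Chance alone flags roughly 1 group in 20, a rate that does not hold for groups with a median of 0 TPM, which were 7 of the 126 and 2 of the 12. The WUSCHEL, DWF4, GH3.1 and ORC1B homologs, whose s4 replicate 4 values are given above, were not among the 73. The counts therefore do not cover every gene described by library.

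Among the genes chosen for it, s4 replicate 4 was far above the other s4 libraries for Aqcoe4G056300 (1229 TPM), Aqcoe4G056200 (270.4 TPM), Aqcoe3G136400 (75.8 TPM), Aqcoe4G058900 (25.0 TPM) and Aqcoe5G451000 (17.4 TPM) and far below them for Aqcoe3G007700 (6.71 TPM). Among the others it was far below them for the YAB3 homolog Aqcoe7G078300 (154.7 TPM), AqAS1 (32.4 TPM), AqBOP (20.8 TPM), AqCRC (11.6 TPM), AqHB3 (6.67 TPM), AqEPFL4 (6.07 TPM) and the VIM1 homolog Aqcoe3G422300 (0.656 TPM). The other flagged s4 values were AqSAP in s4 replicate 5 (0.791 TPM, low) and the TET2 homolog Aqcoe7G131100 in s4 replicate 3 (2.64 TPM, high).

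At s2, replicate 4 stood apart for Aqcoe3G136400 (0.0365 TPM), Aqcoe4G058900 (0.105 TPM), Aqcoe5G451000 (0.171 TPM) and AqBOP (54.2 TPM). Replicate 6 stood apart for Aqcoe4G056200 (2.45 TPM), replicate 5 for the bHLH gene Aqcoe3G183200 (0.115 TPM) and replicate 2 for Aqcoe7G264500 (0.0335 TPM). Among library properties, s2 replicate 1 had the longest fragments of its stage, at 197 bases, and s4 replicate 4 was the farthest from the mean of its stage, at 1.10.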

How the results depend on the processing

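Without s4 replicate 4 the lower calls rose from 224 to 395, the genes with an adjusted p under 0.05 from 2999 to 4971, and the genes without overlap that were higher from 246 to 402. The distance of a library from its own stage mean, larger at s4 by 0.0800 with all libraries, had the other sign (-0.0301, exact permutation test, two-sided p = 0.568). Settings added after seeing the data gave 338 lower calls with only the 16 libraries and without s4 replicate 4, and 441 lower calls and 5719 genes by adjusted p with DESeq2 without it. With all 16 libraries alone, 1855 genes passed the adjusted p. Leaving out any 1 library gave 891 to 1272 calls, 679 to 877 higher and 199 to 395 lower, and 2297 to 4971 genes by adjusted p. The cause was not tested.

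Calls higher and lower were 837 and 244 with DESeq2, 712 and 263 with limma-voom, 820 and 216 with size factors of the RLE kind, 953 and 245 with no filter, and 547 and 199 with more than 1 CPM in at least 8 libraries, which tests fewer genes. The replicate numbers do not pair the samples: correlations of the deviations of same-numbered libraries ran from -0.42 to 0.48, with 1 of 8 matching best with its own number, and the fit with the replicate number as a block called 744 higher and 214 lower.

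Of 4611 comparisons of 172 named genes with their first value, 4389 kept direction and side of the threshold, 51 passed it newly, 160 lost it and 11 had the other sign. The reversals were Aqcoe4G056200, which ran from -1.47 to 8.18 when each library was left out, with -1.47 without s4 replicate 4 (the same with only the 16 libraries), -1.79 with DESeq2, also on length-scaled counts, and -1.60 with DESeq2 without that library, and AqAGO5b, with -0.105 without s4 replicate 4, -0.106 with only the 16 libraries without it and -0.093 with DESeq2 without it, over a range of -0.105 to 0.108 when each library was left out in turn. The gibberellin and brassinosteroid median went from 0.08 to -0.043 without s4 replicate 4. Depth limits low genes most: 170 of the 799 higher genes had a mean under 1 TPM at s4.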
